A study of Homo sapiens with 8 samples.

Results

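The 10 genes described here encode sensors of stress in the endoplasmic reticulum (ER), kinases that slow protein synthesis and related transcription factors. The genes were chosen by name, for their role, with earlier results of these data known. They are the ER stress sensors ATF6, ERN1 (the protein IRE1α) and EIF2AK3 (PERK), the ATF6 paralog ATF6B, the transcription factor XBP1, the eIF2α kinases EIF2AK1 (HRI), EIF2AK2 (PKR) and EIF2AK4 (GCN2), and the factors CREB3L2 and CREB3L3. All 10 were found among the 15767 genes of the count table and all 10 passed the filter on low counts, with 499 to 14144 counts per library. RNA-seq was performed on HuH7 cells, a single human hepatoma-derived line, in 8 libraries. All cells were first deprived of oxygen and glucose, with 1% oxygen for 6 h in a medium without glucose, and then reoxygenated for 6 h (OGD/R). The medium of the reoxygenation period held DMSO in 4 libraries (I/R+DMSO) and 20 µM of the ginsenoside Rk2 in the other 4 (I/R+Rk2), so that the groups differed in Rk2 and shared OGD/R. The comparison therefore asked how the mRNA of these genes differed with Rk2 after OGD/R, and it holds no cells without OGD/R. Total counts ran from 18428485 to 21447045 per I/R+DMSO library and from 16374082 to 30310479 per I/R+Rk2 library.

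Misfolded protein in the ER lumen activates the ER stress sensors. ATF6 travels to the Golgi, where it is cut to release a transcription factor that raises ER chaperones. IRE1α removes a short segment from XBP1 mRNA, which yields an active transcription factor, and also degrades other mRNAs at the ER. PERK phosphorylates eIF2α, as do the other eIF2α kinases, each in answer to another stress, and this slows protein synthesis while the mRNA of the transcription factor ATF4 is translated more. CREB3L2 and CREB3L3 are anchored in the ER membrane and cut in the Golgi like ATF6. In hepatocytes, which secrete much of the plasma protein, these pathways adjust the folding and export of secreted proteins. Most of this control lies in splicing, cleavage and phosphorylation, which counts of mRNA per gene do not show.

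The segment that IRE1α removes from XBP1 mRNA is shown because the counts per gene cover XBP1 mRNA with and without it together. The GENCODE v29 annotation places it in the coding part of the mRNA, as 26 bases at chr22:28796124-28796149 on the minus strand of GRCh38, and 4 of its 7 XBP1 transcripts hold the segment while 2 hold the same stretch without it. The capitals below mark the segment where the annotation places it, with 12 bases on each side, 5′ to 3′. The letters CAG stand just before the capitals and again at their end, so removal of a stretch of the same length that starts with the earlier CAG leaves the same mRNA, and the capitals do not mark the cut sites of IRE1α to the base.
XBP1 segment: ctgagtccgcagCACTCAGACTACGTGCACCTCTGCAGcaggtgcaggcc

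Promoter windows of RefSeq on GRCh38.p14, from 250 bases before to 50 bases after the transcription start, matched 9 of the 10 genes (not EIF2AK1) with 11 windows. Searched on both strands were the ER stress element ERSE (CCAAT and CCACG with any 9 bases between them), ERSE-II (ATTGG and CCACG with any 1 base between them), the unfolded protein response element UPRE (TGACGTGG), the cAMP response element CRE (TGACGTCA), the amino acid response element CARE (TGATGNAAT) and a core of the interferon-stimulated response element ISRE (GAAA and GAAA with any 2 bases between them). ERSE and ERSE-II share the letters CCACG. The ERSE is held by 0.0769% of all 35116 windows, and among the 10 genes by XBP1, from base -52 to base -34 relative to the start. The CRE is held by 1.85% of all windows and by that of CREB3L2, from -179 to -172. The ISRE core is held by 3.57% of all windows and by that of EIF2AK2, from -6 to 4. ERSE-II, UPRE and CARE, held by 0.0541%, 0.729% and 0.991% of all windows, had no match in those of the 10 genes. The stretches with a match are shown with the matched letters in capitals, since XBP1, CREB3L2 and EIF2AK2 are each described below. They lie at chr22:28800570-28800819, chr7:138002087-138002336 and chr2:37156961-37157080, each on the minus strand, and a match of letters is a description of the sequence only.
XBP1 promoter: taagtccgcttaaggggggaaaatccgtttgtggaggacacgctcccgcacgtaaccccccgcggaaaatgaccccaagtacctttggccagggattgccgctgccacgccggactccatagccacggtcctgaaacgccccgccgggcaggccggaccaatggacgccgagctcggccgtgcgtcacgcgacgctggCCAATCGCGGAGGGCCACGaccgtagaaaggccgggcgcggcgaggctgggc
CREB3L2 promoter: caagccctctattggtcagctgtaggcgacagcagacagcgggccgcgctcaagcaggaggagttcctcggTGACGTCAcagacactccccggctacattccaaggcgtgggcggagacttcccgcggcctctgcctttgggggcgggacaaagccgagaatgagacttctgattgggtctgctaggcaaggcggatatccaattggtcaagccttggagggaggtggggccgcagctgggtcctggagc
EIF2AK2 promoter: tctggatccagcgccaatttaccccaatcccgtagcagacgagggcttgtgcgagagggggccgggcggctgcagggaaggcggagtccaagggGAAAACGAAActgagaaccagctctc

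Of the 10 genes, 5 were higher in I/R+Rk2 and none was lower in edgeR's quasi-likelihood test, with adjusted p-values below 0.05. These were EIF2AK3, CREB3L2, EIF2AK2, ATF6 and ERN1. Of all 12928 genes tested, 11.0% were called higher and 7.23% lower, and 18.2% were called in either direction. The median log2 fold change of the 10 genes was 0.32, against -0.0021 for all genes tested. This median is without a correction for gene length. With that correction most of the 10 genes had a lower log2 fold change, such as ATF6 with 0.08 in place of 0.29. Those of XBP1 and ATF6B were higher. The fold change was above 1 for all 10, but the direction of ATF6B, EIF2AK1 and EIF2AK4, which were not called, turned under other scalings or corrections. A fold change above 1.5 together with the adjusted p-value was reached by EIF2AK3 and CREB3L2, 2 of the 10 genes, and by 2.46% of all genes tested in this direction. In normalized CPM (counts scaled by edgeR's TMM to the same library size) 6 of the 10 genes had no overlap between the groups, all higher in I/R+Rk2, as had 15.4% of all genes tested. The count of the 10 genes called was 3 with a correction for gene length and also 3 in limma on the deposited FPKM. Fewer of all genes were called higher there too, with 1145 of 12928 after the length correction and 812 of 11884 in limma, against 1416 of 12928 as reported. The labels do not say whether the libraries came from separate cultures, so the p-values measure the spread between these libraries.

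**Figure D1:**
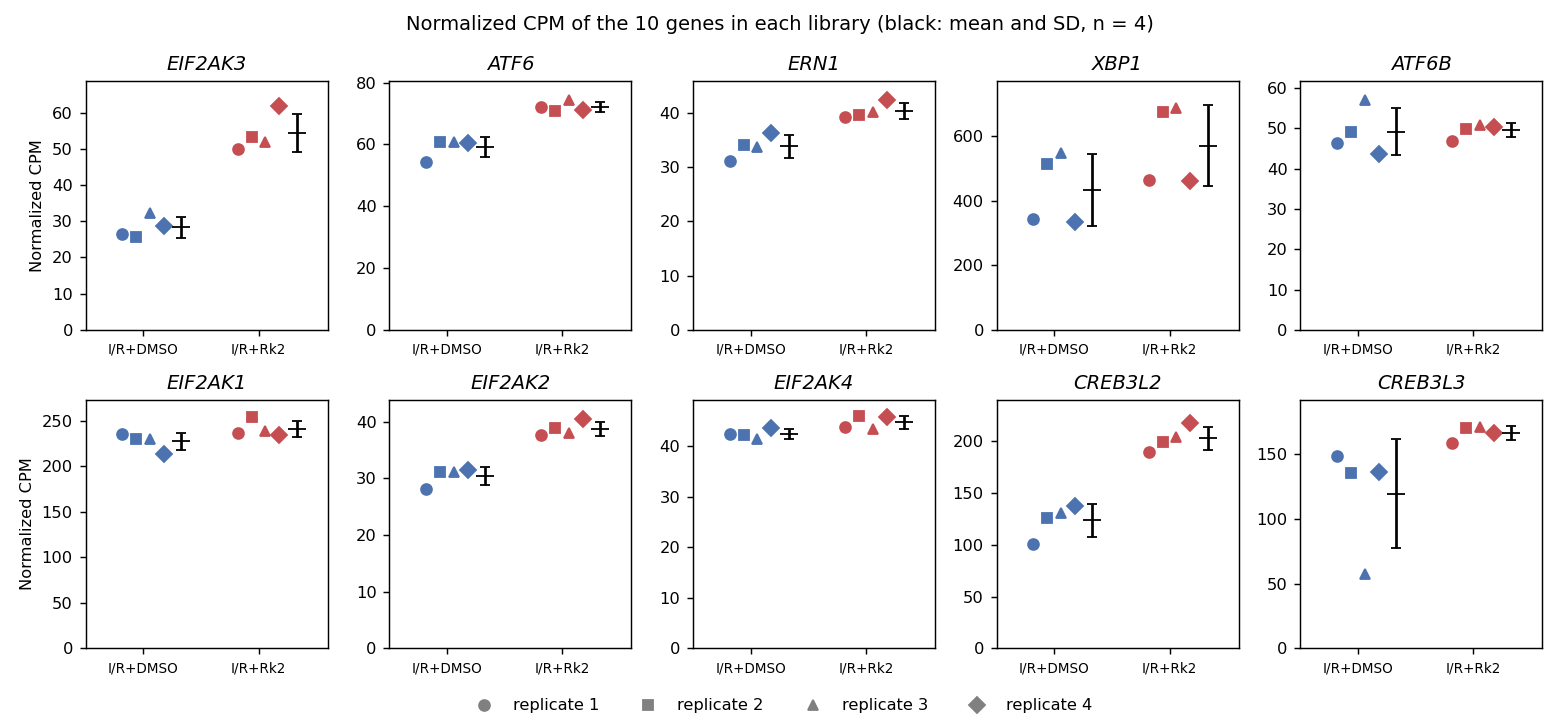
Normalized CPM of each of the 10 genes in each library, on linear axes from 0, with a marker for each replicate number and the mean and SD of the 4 libraries of each group in black. The groups are apart for EIF2AK3, ATF6, ERN1, EIF2AK2, CREB3L2 and CREB3L3 and overlap for XBP1, ATF6B, EIF2AK1 and EIF2AK4, and CREB3L3 in I/R+DMSO replicate 3 (57.3 CPM) lies far below the other libraries.

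Among the sensors, EIF2AK3 differed most. It encodes PERK, the kinase that couples ER stress to eIF2α phosphorylation, and lies at chr2:88556741-88627576 on the minus strand (GRCh38). Its normalized CPM in I/R+DMSO replicates 1 to 4 was 26.5, 25.7, 32.1 and 28.8, and in I/R+Rk2 replicates 1 to 4 it was 49.9, 53.3, 52.0 and 61.9. The lowest I/R+Rk2 library was thus well above the highest I/R+DMSO library. Mean EIF2AK3 was 28.3 ± 2.88 CPM with DMSO and 54.3 ± 5.27 CPM with Rk2 (SD, n = 4), and thus rose 1.92-fold. On the log2 scale the fold change was 0.94 with a standard error of 0.0941 and a 95% confidence interval of 0.72 to 1.16, and edgeR gave it an adjusted p of 8.58e-04. By p-value it ranked 101 of the 12928 genes tested. The log2 fold change stayed between 0.79 and 1.01 in the 22 alternatives, and in each of them it passed the test. The exons of EIF2AK3 overlap AC062029.1 and AC104134.1 on the opposite strand, and whether reads were counted by strand is not given in the sources used here.

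ATF6, whose cleaved form switches on ER chaperone genes, lies at chr1:161766294-161964070 on the plus strand. Its normalized CPM was 54.2, 60.7, 60.7 and 60.6 in I/R+DMSO and 72.3, 70.7, 74.4 and 71.3 in I/R+Rk2, each in the order of replicates 1 to 4. Replicate 1 was the lowest of the I/R+DMSO libraries, and all 4 I/R+Rk2 libraries were higher than every I/R+DMSO library. ATF6 rose by a log2 fold change of 0.29 (SE 0.0504, edgeR adjusted p 0.00772), or 1.22-fold. ATF6 has long transcripts, with a length of 8505 bases derived from counts and FPKM, and across all genes the log2 fold change rose with length (Spearman's rho 0.388) and fell with GC content (rho -0.318). After a correction for gene length in edgeR its log2 fold change was 0.08 (adjusted p 0.230 from edgeR), and after a correction for length and GC content 0.0037 (adjusted p 0.972 from edgeR), so that the call of ATF6 was lost.

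ERN1, which encodes the kinase and endoribonuclease IRE1α, lies at chr17:64039142-64130819 on the minus strand. In the order of replicates 1 to 4, ERN1 had a normalized CPM of 31.2, 34.1, 33.7 and 36.3 in I/R+DMSO and 39.2, 39.5, 40.1 and 42.4 in I/R+Rk2. The groups did not overlap, but the gap between the highest I/R+DMSO and the lowest I/R+Rk2 library was smaller than the range within I/R+DMSO. ERN1 rose by a log2 fold change of 0.25 (SE 0.0594, edgeR adjusted p 0.0236), or 1.19-fold. This was the weakest of the 5 calls. It was lost after the length correction (log2 fold change 0.11, edgeR adjusted p 0.0769), but kept after the correction for length and GC content (0.14, edgeR adjusted p 0.0430) and for GC content alone (0.27, edgeR adjusted p 0.0192). The call was also lost in limma on log2(FPKM + 1), with a log2 fold change of 0.16 (limma adjusted p 0.166). It was lost too when single libraries were left out, at log2 fold changes of 0.23 to 0.26. Leaving out I/R+DMSO replicate 2 or replicate 3 gave ERN1 an edgeR adjusted p of 0.0535 or 0.0551, and leaving out replicate 2, 3 or 4 of I/R+Rk2 gave 0.0516, 0.0559 or 0.0699.

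XBP1, the transcription factor whose mRNA IRE1α cleaves, lies at chr22:28794555-28800597 on the minus strand. XBP1 had a normalized CPM of 342, 512, 547 and 335 in I/R+DMSO replicates 1 to 4, and of 463, 674, 686 and 460 in I/R+Rk2 replicates 1 to 4. In both groups replicates 2 and 3 were high and replicates 1 and 4 low, and the groups overlapped. Mean XBP1 was 434 ± 111 CPM with DMSO and 570 ± 126 CPM with Rk2 (SD, n = 4). The log2 fold change of XBP1 was 0.39, with a 95% confidence interval of -0.11 to 0.90, and did not pass the test (edgeR adjusted p 0.241). With a replicate block XBP1 passed it (log2 fold change 0.40, edgeR adjusted p 0.00989). Across all genes, however, same-numbered libraries showed almost no correlation, and the labels do not say what the replicate numbers stand for. Within groups, the SD of the log2 CPM of XBP1 was larger than that of 92.0% of the 7449 genes with a mean of at least 20 CPM. The counts per gene give no share of XBP1 mRNA with or without the segment shown above.

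ATF6B, the paralog of ATF6 and a weaker activator, lies at chr6:32115264-32128253 on the minus strand. Its normalized CPM of 46.4, 49.2, 57.1 and 43.6 in I/R+DMSO replicates 1 to 4 enclosed the values of 46.9, 49.7, 50.9 and 50.2 in I/R+Rk2 replicates 1 to 4. Its log2 fold change was 0.01, with a 95% confidence interval of -0.18 to 0.20 (edgeR adjusted p 0.949), and turned to -0.02 with upper-quartile normalization. The exons of ATF6B overlap those of TNXB and AL662884.2 on the same strand, so that reads of these genes could be counted together. In I/R+DMSO its coefficient of variation was 11.8% in CPM and 2.57% in the deposited FPKM.

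Among the other eIF2α kinases, EIF2AK2 rose. It encodes PKR, which double-stranded RNA activates and interferon induces, and lies at chr2:37099210-37157065 on the minus strand. EIF2AK2 had a normalized CPM of 28.1, 31.1, 31.0 and 31.4 in I/R+DMSO and of 37.6, 39.0, 38.1 and 40.4 in I/R+Rk2, in the order of replicates 1 to 4. Every I/R+Rk2 library was above every I/R+DMSO library, with a mean of 38.8 ± 1.24 against 30.4 ± 1.54 CPM (SD, n = 4). The log2 fold change of EIF2AK2 was 0.35 (SE 0.0550, edgeR adjusted p 0.00522), or 1.27-fold. In FPKM its groups overlapped, from 3.59 to 4.58 in I/R+DMSO and from 4.07 to 5.47 in I/R+Rk2, and limma on log2(FPKM + 1) gave 0.20 (limma adjusted p 0.233). Correcting for length and GC content also ended the call of EIF2AK2, with a log2 fold change of 0.06 (edgeR adjusted p 0.410). The call was kept with the correction for length alone (0.17, edgeR adjusted p 0.0212) and for GC content alone (0.19, edgeR adjusted p 0.0493). It was lost with length correction and replicate block (0.17, edgeR adjusted p 0.0752). Its exons overlap GPATCH11 and AC007899.1 on the opposite strand.

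EIF2AK1, the heme-regulated kinase HRI, lies at chr7:6022244-6059230 on the minus strand and was the most abundant of the eIF2α kinases. Its normalized CPM was 235, 230, 230 and 213 in I/R+DMSO replicates 1 to 4 and 237, 254, 238 and 234 in I/R+Rk2 replicates 1 to 4. I/R+Rk2 replicate 4 lay within the range of I/R+DMSO. The log2 fold change of EIF2AK1 was 0.09 (95% confidence interval -0.02 to 0.19, edgeR adjusted p 0.213), and it was -0.0044 after the length correction. Its exons overlap AIMP2 on the opposite strand.

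EIF2AK4 encodes GCN2, which uncharged tRNA activates when amino acids run short, and lies at chr15:39934146-40035591 on the plus strand. Its normalized CPM was 42.3, 42.2, 41.3 and 43.5 in I/R+DMSO and 43.7, 46.0, 43.3 and 45.6 in I/R+Rk2, in the order of replicates 1 to 4. The values of EIF2AK4 overlapped between the groups at 43.3 to 43.5 CPM. Its log2 fold change of 0.08 (95% confidence interval -0.03 to 0.18) was not past the threshold (edgeR adjusted p 0.265), and it turned to -0.02 in limma on log2(FPKM + 1).

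CREB3L2 drives genes of the secretory pathway, among them coat proteins of ER export vesicles, and lies at chr7:137874979-138002067 on the minus strand. Its normalized CPM was 101, 125, 130 and 137 in I/R+DMSO replicates 1 to 4 and 190, 199, 204 and 217 in I/R+Rk2 replicates 1 to 4. The groups were widely apart, with the lowest I/R+DMSO value in replicate 1. Mean CREB3L2 was 123 ± 15.8 CPM with DMSO and 202 ± 11.4 CPM with Rk2 (SD, n = 4), and thus rose 1.64-fold. On the log2 scale this was 0.71 with a standard error of 0.0932 and a 95% confidence interval of 0.50 to 0.93 (edgeR adjusted p 0.0025). In the 22 alternatives the log2 fold change stayed between 0.53 and 0.77 and each passed the test. CREB3L2 is labelled in a heat map of leading PI3K-AKT pathway genes that the study drew from these same libraries, so its call is not independent evidence.

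CREB3L3, a liver-enriched factor that acts on genes of lipid metabolism, lies at chr19:4153601-4173054 on the plus strand. In the libraries, CREB3L3 had 149, 136, 57.3 and 137 normalized CPM in I/R+DMSO replicates 1 to 4 and 159, 171, 171 and 166 in I/R+Rk2 replicates 1 to 4. The groups did not overlap, and I/R+DMSO replicate 3 lay far below all other libraries, in FPKM (25.0 against 46.0 to 49.8 in the other I/R+DMSO libraries) as in CPM. The log2 fold change of CREB3L3 was 0.48 (95% confidence interval -0.13 to 1.09), which did not pass the test (edgeR adjusted p 0.239). Without I/R+DMSO replicate 3 the log2 fold change was 0.25 and passed it (edgeR adjusted p 0.0263).

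**Figure D2:**
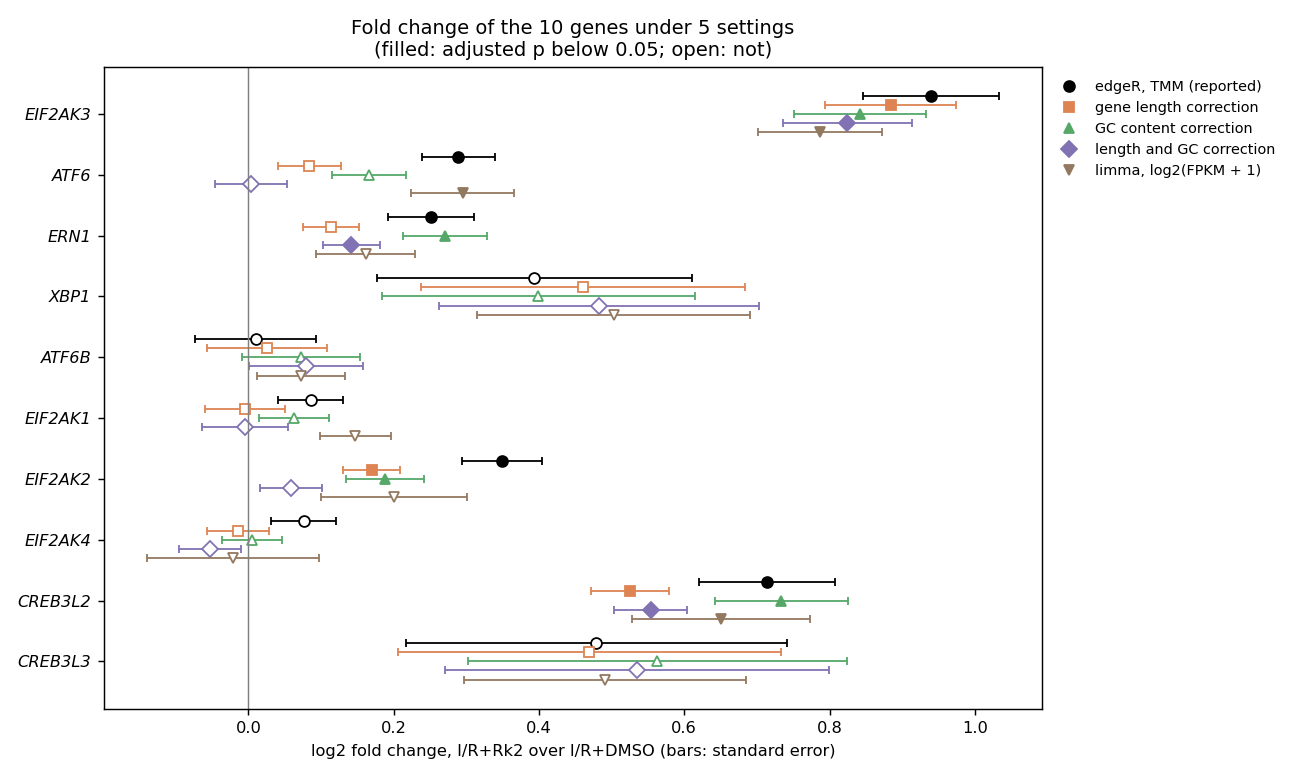
Log2 fold change of each of the 10 genes, I/R+Rk2 over I/R+DMSO, with its standard error as a bar, as reported and under 4 alternatives, with filled symbols where the adjusted p-value was below 0.05. EIF2AK3 and CREB3L2 are filled in all of them, ATF6 goes from 0.29 as reported to 0.0037 with the length and GC content correction, and the bars of XBP1 and CREB3L3 are the widest shown.

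Whether 2 of the genes changed by a different amount was tested on the log2 ratio of their CPM in each library, over 7 pairs fixed by family or role. The log2 ratio of EIF2AK3 to ERN1 was -0.26 ± 0.145 in I/R+DMSO and 0.43 ± 0.0888 in I/R+Rk2 (SD, n = 4), which is a difference of 0.69. That of EIF2AK3 to EIF2AK2 differed by 0.59, and that of ATF6 to ATF6B by 0.27. In each of these pairs the groups did not overlap and the two-sided exact permutation p was 0.0286, the smallest that 4 libraries against 4 allow. After Benjamini-Hochberg adjustment over the 7 pairs this was 0.0667, so none passed the correction. With that smallest p, a pair could pass only if most of the 7 pairs reached it together. Not passing therefore does not show that the genes of a pair changed alike. For CREB3L2 to CREB3L3 the difference was 0.15 (exact permutation p = 0.714) and for XBP1 to ERN1 also 0.15 (exact permutation p = 0.543). Single libraries moved both values, that of CREB3L2 to CREB3L3 to -0.08 without I/R+DMSO replicate 1 and to 0.50 without I/R+DMSO replicate 3, and that of XBP1 to ERN1 to 0.0024 without I/R+DMSO replicate 4 and to 0.27 without I/R+DMSO replicate 3. For ERN1 to ATF6 it was -0.04 (exact permutation p = 0.371) and for EIF2AK4 to EIF2AK1 -0.01 (exact permutation p = 0.886). With 1 library left out, the former ranged from -0.07 (without I/R+Rk2 replicate 4) to -0.02 (without I/R+DMSO replicate 4) and the latter from -0.03 to 0.03 when the same libraries were left out. Taken on FPKM in place of CPM, the difference was 0.67 for EIF2AK3 to ERN1, 0.62 for EIF2AK3 to EIF2AK2, 0.25 for ATF6 to ATF6B and -0.14 for ERN1 to ATF6, each with an exact permutation p that was 0.05 after adjustment over the 7 pairs and so not below the threshold. On FPKM it was 0.32 for XBP1 to ERN1 (adjusted exact permutation p = 0.24), -0.17 for EIF2AK4 to EIF2AK1 (adjusted exact permutation p = 0.433) and 0.18 for CREB3L2 to CREB3L3 (adjusted exact permutation p = 0.6).

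Levels between genes were compared in FPKM, which the authors had divided by gene length. XBP1 had the highest level in both groups, with 232 ± 54.0 FPKM in I/R+DMSO and 327 ± 63.5 in I/R+Rk2 (SD, n = 4 each), and EIF2AK2 the lowest, with 4.15 ± 0.416 and 4.93 ± 0.605. In I/R+DMSO the order from high to low was XBP1, EIF2AK1 (48.2 FPKM), CREB3L3 (41.7), ATF6B (18.7), CREB3L2 (15.9), EIF2AK4 (9.59), EIF2AK3 (7.86), ATF6 (6.83), ERN1 (5.75) and EIF2AK2. The ranges of EIF2AK1 and CREB3L3 and of EIF2AK4 and EIF2AK3 overlapped, and each pair stood in this order in 3 of 4 libraries. Those of EIF2AK3 and ATF6 overlapped too, although EIF2AK3 was above ATF6 in 4 of 4 libraries. In I/R+Rk2 the order was XBP1, CREB3L3 (57.2 FPKM), EIF2AK1 (53.5), CREB3L2 (25.4), ATF6B (19.7), EIF2AK3 (14.2), EIF2AK4 (9.42), ATF6 (8.60), ERN1 (6.55) and EIF2AK2. There the ranges of CREB3L3 and EIF2AK1 overlapped, with the same order in 4 of 4 libraries, as did those of EIF2AK4 and ATF6, with the same order in 3 of 4. EIF2AK3 stood below ATF6B in both groups, and it was above EIF2AK4 in every I/R+Rk2 library.

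The FPKM of the eIF2α kinases, the products that converge on eIF2α, summed to 69.8 ± 1.15 in I/R+DMSO and 82.1 ± 2.93 in I/R+Rk2 (SD, n = 4 each). EIF2AK1 made up 69.1% ± 0.598 of this sum in I/R+DMSO and 65.2% ± 1.11 in I/R+Rk2, without overlap. EIF2AK3 made up 11.3% ± 1.30 and 17.4% ± 1.04, again without overlap, and its lowest I/R+Rk2 share of 16.3% was above its highest I/R+DMSO share of 12.6%. The shares of EIF2AK2 (5.95% and 5.99%) and EIF2AK4 (13.7% and 11.4%) overlapped between the groups. Among the ER stress sensors the share of EIF2AK3 was 38.4% ± 2.08 and 48.4% ± 1.04, while that of ATF6 was 33.4% ± 1.42 and 29.3% ± 0.772 and that of ERN1 28.2% ± 0.754 and 22.3% ± 0.676 (SD, n = 4 each). These shares are a description without a test, and they rest on FPKM, which moved apart from CPM in some genes. In I/R+DMSO replicate 2, for example, EIF2AK3 had the highest FPKM of its group (8.92) and the lowest CPM (25.7). The ratio of CPM (here without TMM) to FPKM differed up to 1.51-fold between libraries for EIF2AK3, 1.58-fold for EIF2AK4 and 1.42-fold for EIF2AK2, and the cause was not tested.

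**Figure D3:**
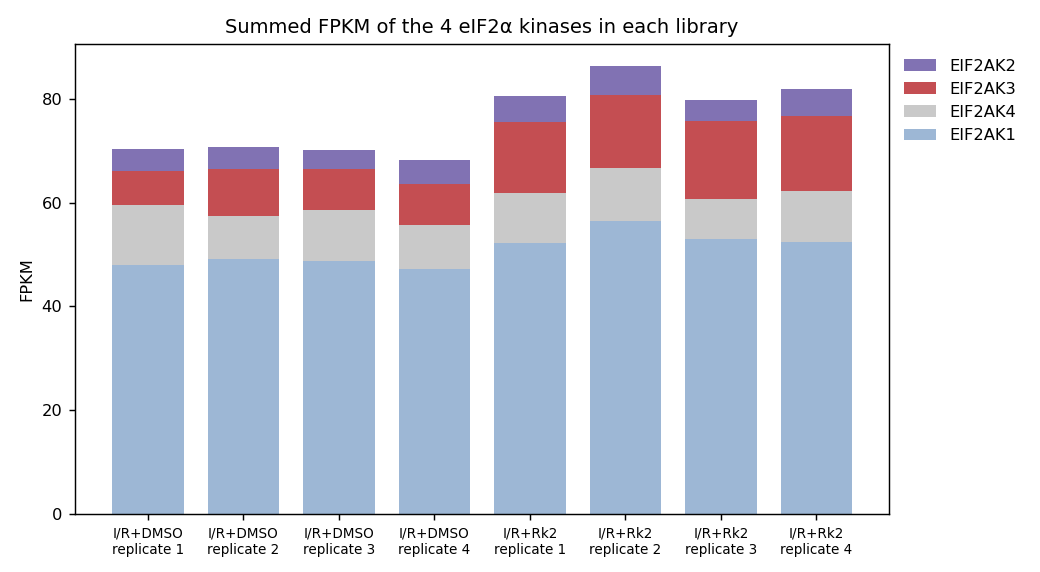
FPKM of the 4 eIF2α kinases in each library, stacked, on a linear axis from 0. EIF2AK1 is the largest part of every bar, the part of EIF2AK3 is 6.67 to 8.92 FPKM in the I/R+DMSO libraries and 13.5 to 14.9 in the I/R+Rk2 libraries, and all I/R+Rk2 bars are taller than all I/R+DMSO bars.

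The genes downstream of the sensors and kinases were described by lists compiled by hand and by counts from the same edgeR test, to be read beside the 11.0% of all genes tested that were called higher and the 7.23% called lower. Of 21 tested genes made of ATF4 and its targets, downstream of all eIF2α kinases, 16 rose and none fell, with a median log2 fold change of 0.65. ASNS, which makes asparagine, rose from 217 ± 6.01 to 433 ± 7.89 CPM (SD, n = 4), or 1.00 on the log2 scale (edgeR adjusted p 5.48e-06). DDIT4, an inhibitor of mTORC1 signalling that is labelled in the same heat map as CREB3L2, rose by a log2 fold change of 1.13 (edgeR adjusted p 3.37e-05). Across the 22 alternatives 14 to 18 genes of this list were called higher and none lower.

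Of 24 tested ER chaperones and genes of ER-associated degradation, which ATF6 and XBP1 drive, 11 rose and none fell, with a median log2 fold change of 0.29. DNAJB9, a co-chaperone of the ER lumen that spliced XBP1 induces, rose from 50.8 ± 3.86 to 132 ± 3.88 CPM (SD, n = 4), or 1.38 on the log2 scale (edgeR adjusted p 2.12e-05). EDEM1, which directs misfolded glycoproteins to degradation, rose by a log2 fold change of 0.84 (edgeR adjusted p 3.40e-04). In the alternatives 9 to 16 genes of the list were called higher and none lower. Of 5 tested substrates of IRE1α-dependent decay, SCARA3, a scavenger receptor, fell by 0.39 on the log2 scale (edgeR adjusted p 0.0172) and 4 did not pass the test, and the median was -0.11. SCARA3 was not called in limma on FPKM.

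The COPII coat, which buds vesicles from the ER and holds targets of CREB3L2, had 5 of 10 tested genes higher and none lower, with a median log2 fold change of 0.27. SEC24D and SEC24A, both cargo adaptors of the coat, rose by 0.92 (edgeR adjusted p 2.93e-04) and 0.82 (edgeR adjusted p 7.51e-04) on the log2 scale. Of 5 tested CREB3L3 targets of liver, APOA4, an apolipoprotein, rose from 2.18 to 3.68 CPM (log2 fold change 0.76, edgeR adjusted p 0.0186), and the median of the list was 0.24. The number called higher in this list ranged from 0 to 2 over the alternatives.

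Of 10 tested genes for eIF2, its exchange factor eIF2B and the regulatory subunits of the eIF2α phosphatase, 2 rose and none fell, and the median was -0.07. Over the alternatives 1 to 3 genes of this list were called higher and 0 to 2 lower, with 2 lower in DESeq2 and with upper-quartile scaling, and 1 lower with each correction for length, GC content or both and without I/R+Rk2 replicate 1. The 2 genes that rose encode phosphatase subunits that reverse the phosphorylation by the kinases. PPP1R15A, the stress-inducible subunit, rose by a log2 fold change of 0.40 (edgeR adjusted p 0.00705) and PPP1R15B, the constitutive subunit, by 0.33 (edgeR adjusted p 0.00646). Of 13 tested genes that process or regulate the 10 genes' products, 2 fell and none rose, with a median of 0.02. These were TARBP2, an inhibitor of PKR, with a log2 fold change of -0.26 (edgeR adjusted p 0.0218), and TRAF2, an adaptor of IRE1α signalling, with -0.20 (edgeR adjusted p 0.0342). The number called lower in this list ranged from 0 to 2 over the alternatives, and was 0 without I/R+Rk2 replicate 3 and without replicate 4. It was also 0 in limma on FPKM and with the GC content correction, alone or with length. With length correction and replicate block, 1 gene of this list was called higher.

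Of 15 tested interferon-stimulated genes, a class to which EIF2AK2 belongs, 2 fell and none rose, with a median log2 fold change of -0.06. IFIT1, which binds foreign RNA, fell from 3.33 to 2.17 CPM (log2 fold change -0.61, edgeR adjusted p 0.0303). IFI6 fell from 25.6 to 19.7 CPM (log2 fold change -0.38, edgeR adjusted p 0.0427). When I/R+DMSO replicate 3 or any of replicates 2, 3 and 4 of I/R+Rk2 was left out, 0 genes of this list were called lower, as in limma on FPKM. With library totals as the scaling, with at least 50 counts in all libraries and without I/R+DMSO replicate 1, 1 gene was called higher and 1 lower. Over all 22 alternatives, the number called lower moved in 17, and 1 gene was called higher in 6. Among 3 tested relatives of the 10 genes (CREB3, CREB3L1 and CREB3L4) none was called, and CREB3, with the smallest p-value, had a log2 fold change of 0.07 (edgeR adjusted p 0.389). With the length and GC content correction, 1 of these relatives was called higher.

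**Figure D4:**
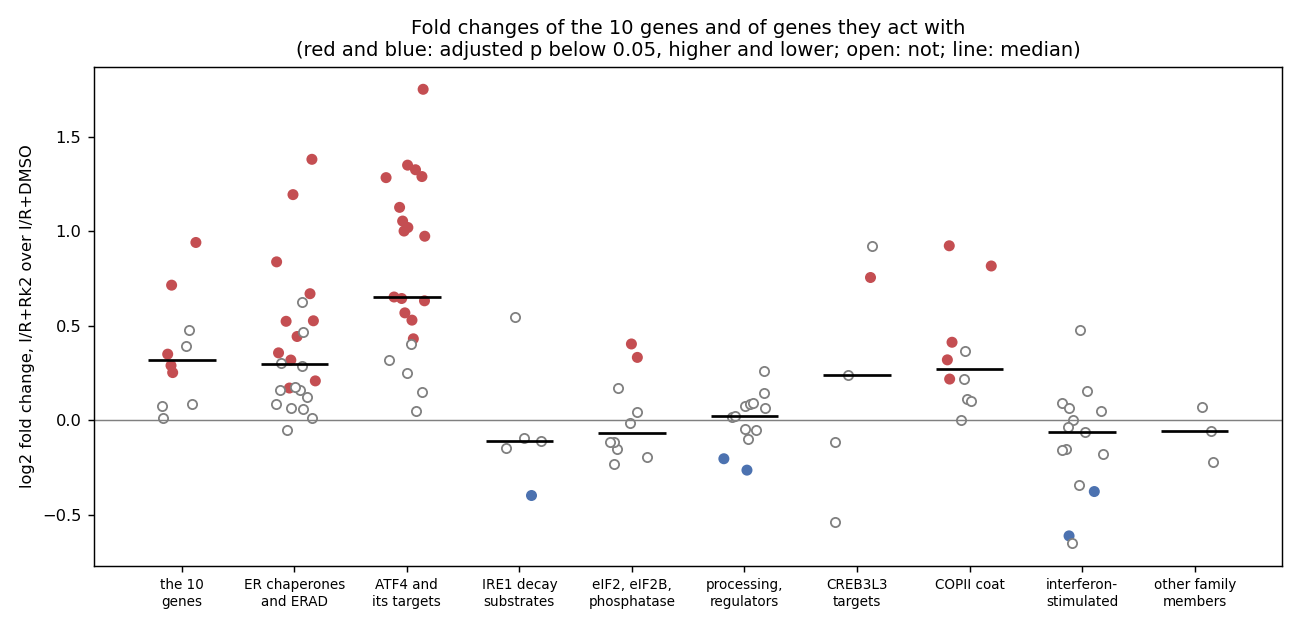
Log2 fold change, I/R+Rk2 over I/R+DMSO, of the tested genes of each list, with a line at the list's median, filled red (higher) or blue (lower) where the edgeR adjusted p-value was below 0.05 and open otherwise; points are spread sideways for legibility. The medians are 0.65 for ATF4 and its targets, 0.32 for the 10 genes and 0.29 for ER chaperones and degradation, and they lie between -0.11 and 0.02 for the IRE1α decay substrates, the eIF2 and phosphatase genes, the regulators, the interferon-stimulated genes and the other family members. All values are without a correction for gene length or GC content.

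For each of the 3 genes called with the smallest p-values, the genes with the most similar pattern were found by Pearson's r of log2 CPM over the 8 libraries, as a description in which libraries and groups are shared. EIF2AK3 was most like CBS (r = 0.994), ZCCHC8 (0.992) and VLDLR (0.990). CREB3L2 was most like TSC1 (0.998), AFF4 (0.997) and ARFGEF2 (0.996). EIF2AK2 was most like TSC1 (0.997), MAN1A1 (0.994) and LAMP2 (0.994).

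Markers of hepatocytes were present as the label of the line implies, with AFP as the most abundant. AFP had 2229 to 2526 FPKM. The 12 markers summed to 6407 to 6827 FPKM in I/R+DMSO and to 6277 to 6359 in I/R+Rk2, so that the groups did not overlap. Of these markers APOB rose by a log2 fold change of 0.61 (edgeR adjusted p 0.0124), while KRT8 fell by 0.47 (edgeR adjusted p 7.71e-04) and KRT18 fell by 0.52 (edgeR adjusted p 0.00642) on the log2 scale. The other 9 of the 12 were not called, among them AFP with a log2 fold change of 4.53e-04. The median log2 fold change of the 12 was -0.03. Endothelial markers summed to 1.07 to 2.34 FPKM, most of it PECAM1, and CDH5 and KDR were listed at 0 in every library. Leukocyte markers summed to 24.2 to 32.7 FPKM, most of it CD68, with PTPRC listed at 0, and CD14, with 5 to 24 counts per library, was lower in I/R+Rk2 (log2 fold change -1.25, edgeR adjusted p 0.0430). Markers of fibroblasts and stellate cells summed to 5.06 to 7.24 FPKM, most of it COL1A2, with DCN listed at 0, and PDGFRA was lower in I/R+Rk2 (log2 fold change -0.34, edgeR adjusted p 0.0376). All libraries came from a single line, so the markers describe its expression and do not count cells of other types. The part of these markers in the changes of the 10 genes was not tested. Whether a difference lay in all cells of the line or in some of them cannot be told in bulk libraries.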

How the data were processed

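RNA-seq of HuH7 cells was analysed in 8 libraries, 4 of I/R+DMSO and 4 of I/R+Rk2, grouped by their labels. The authors prepared the libraries from total RNA with an MGIEasy kit and deposited raw counts per gene, not normalized, for 15767 genes, and FPKM, divided by length and by depth, for 19799. Per the submitters' processing notes, FastQC 0.11.5, HISAT2 2.2.1, StringTie 1.3.3 and hg38 were used, and the counting tool, its use of strand and the annotation are not given in the sources used here. Gene symbols that a spreadsheet had turned into dates (22, with 0.111% of counts) stayed in the fit and are not named.

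Totals per library ranged from 16374082 to 30310479 counts. The tools were edgeR 4.0.16, limma 3.58.1 and DESeq2 1.42.0 in R 4.3.3. Genes needed 10 counts or more in 4 libraries or more, which left 12928. Their TMM-scaled counts were fitted in edgeR (glmQLFit, robust) on group alone, p-values were adjusted over all 12928 genes by Benjamini-Hochberg, and a gene was called when the adjusted value was below 0.05. Log2 CPM used a prior count of 1. Positions and overlaps came from GENCODE v29 (GRCh38). Length was derived from counts and FPKM (99.8% of genes) and GC content from GENCODE transcripts (98.4%); corrections entered a loess fit of each library (span 0.5) as an offset in edgeR.

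As alternatives, DESeq2 replaced edgeR, TMM gave way to upper-quartile scaling or to library totals, the count filter was dropped or raised to 50 in all libraries, limma was run on FPKM (pseudocounts 1 and 0.1, mean FPKM 0.5 or above, or unfiltered) and on voom values with weights, and a replicate block, a length correction, a minimum fold of 1.5 and the omission of each library were tried. The corrections with GC content were chosen after seeing the data. The 10 genes and all lists were chosen with earlier results of these data known. Named are the 10 genes, up to 2 genes of each list in each direction with the smallest p-values among those called (or else the gene with the smallest), and the 3 genes most like each of 3 called genes. Tested on simulated data in which 200 of 12928 genes changed 2-fold, the edgeR step recovered 151 (75.5%) besides 8 false calls, and 0 genes were called in data without changes. The simulated counts held no trend with length or GC content and no changes smaller than 2-fold. They therefore do not cover calls such as those of ATF6, ERN1 and EIF2AK2. The between-replicate coefficient of variation that edgeR estimated was 17.1%. Liver libraries of mice were not analysed here.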

Additional observations from a re-analysis of the deposited data

Results flagged for a closer look

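Each of the 10 genes was checked in both groups for a library far from the other 3, 20 checks in all, of which chance marks about 1 in 20. CREB3L3 in I/R+DMSO replicate 3 had 57.3 CPM, while the other I/R+DMSO libraries had 136 to 149. ATF6 in I/R+DMSO replicate 1 had 54.2 CPM, below the 60.6 to 60.7 of the others, a gap of 0.983 of the range of the group. EIF2AK2 in I/R+DMSO replicate 1 had 28.1 CPM, below the 31.0 to 31.4 of the others. Without I/R+DMSO replicate 1 the log2 fold change of ATF6 was 0.25 and that of EIF2AK2 0.31, and both still passed the test in edgeR.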

How the results depend on the processing

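EIF2AK3 and CREB3L2 passed the test in all 22 alternatives. ATF6 did not pass it with the length correction (0.0836), with length correction and replicate block (0.0828), with the GC content correction (0.17) and with length and GC content correction (0.0037), all as log2 fold changes. ERN1 did not pass it in limma on log2(FPKM + 1) (0.16), log2(FPKM + 0.1) (0.19) or without a filter (0.16), with the length correction (0.11) and with length correction and block (0.11), and leaving out 1 library gave 0.21 to 0.29. EIF2AK2 did not pass it in the same limma fits (0.20, 0.24 and 0.20), with length correction and block (0.17) and with length and GC content correction (0.0588). The sign of ATF6B turned with upper-quartile normalization (-0.0175) and voom (-0.0175), and it ran from -0.0421 to 0.0903 with 1 library left out. That of EIF2AK1 turned with the length correction (-0.0044), length correction and block (-0.0029) and length and GC content correction (-0.0041). That of EIF2AK4 turned in the limma fits (-0.0210, -0.0228 and -0.0210), with the length correction (-0.0145), length correction and block (-0.0145) and length and GC content correction (-0.0523). For CREB3L3 the range with 1 library left out was 0.25 to 0.60, with the lowest value past the threshold. The cause of these changes was not tested.

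Of the 10 genes, 3 were called higher in each limma fit, with the length correction, with length correction and block, and with length and GC content correction, 2 with a fold change above 1.5, and 4 or 5 with 1 library left out. Of all genes tested, 2351 were called as reported, 1121, 1106 and 971 in the limma fits, 1467 with length correction and block, 393 with a fold change above 1.5, and 1291 to 2282 with 1 library left out, the lowest without I/R+Rk2 replicate 4. Called higher were 1416 of all genes as reported, 812, 798 and 707 in the limma fits, 1145 with the length correction, 760 with length correction and block and 1024 with length and GC content correction. The count in either direction was 1461 without I/R+Rk2 replicate 2 and 1512 without replicate 3. Without I/R+Rk2 replicate 4, 861 of 12855 genes were called higher and 430 lower, against 1416 and 935 of 12928 as reported. The share of calls that were higher was 60.2% as reported, 48.9% with upper-quartile normalization, 70.6% with library size only, 72.4% in limma on log2(FPKM + 1), 50.8% with the length correction and 49.9% with length and GC content correction.

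Replicate numbers are shared by the groups, but the labels do not say what they stand for. Deviations of same-numbered libraries correlated at only 0.0160, -0.00945, 0.0381 and 0.0845, and 1 of 4 libraries matched its own number best. Across all genes the numbers thus showed no pairing of the libraries. Whether same-numbered libraries share a factor that acts on some genes only was not tested. With a replicate block 6 of the 10 genes and 1142 of all 12928 genes tested were called higher, against 5 and 1416 as reported. XBP1 then passed the test at 0.40 (edgeR adjusted p 0.00989), and at 0.48 with length correction and block (edgeR adjusted p 0.0103). Its same-numbered libraries differed 1.35-, 1.31-, 1.25- and 1.37-fold. The lowest count of any of the 10 genes in a library was 499.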
